A study of Mus musculus with 6 samples.

Results

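AMPA and NMDA receptors are the glutamate-gated channels that carry most fast excitatory transmission in the brain. *Gria1*, *Gria2*, *Gria3* and *Gria4* encode the AMPA receptor subunits GluA1 to GluA4, and *Grin1* encodes GluN1, the subunit that NMDA receptors require. Each AMPA subunit transcript is known to carry 1 of a pair of alternative exons, flip or flop, which encode a stretch of the ligand-binding domain and set how fast the channel desensitizes. *Grin1* transcripts are known to differ by the N1 cassette in the extracellular part and by cassettes at the intracellular C-terminus. These genes were chosen by symbol, and all 5 had rows in the deposited table, with 10 of its 13002 alternative events (5 of 7788 genes).

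The events were measured in brain RNA from 6 mice of a B6.CAST congenic line, 3 homozygous for the CAST allele of the mRNA export factor gene *Nxf1* and 3 homozygous for its B6 allele, each on 1 Affymetrix MJAY array. They came as 3 littermate pairs, each with 1 mouse of either genotype and of 1 sex, with 2 pairs of females and 1 of males. The females were 46 days old in one pair and 23 days in the other, and in the male pair the B6 mouse was 22 and the CAST mouse 23 days old. The CAST homozygotes also carried CAST alleles at the neighbours of *Nxf1* on chromosome 19, so that *Nxf1* and those genes cannot be told apart, but none of the 5 receptor genes lies on that chromosome. The comparison asked whether the *Nxf1* genotype changes how transcripts without a retroviral insertion are processed.

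MJAY arrays hold probe sets for both outcomes of an event, named exclusion and inclusion. For each outcome the table lists 1 intensity for a set A and 1 for a set B, already pooled over the arrays. Set B was likely the CAST set, because the file header defines the authors' score as the mutant ratio over the wild-type ratio, and the sign of that score was the sign of set B over set A in 99.2% of 26391 paths. For this check each path was taken over its alternative. A figure legend of the study words the score as inclusion over exclusion, and by that wording set A could be the CAST set. The naming of the sets by genotype is therefore uncertain. No value per mouse is listed, so there was no replicate error and no test, and every difference below describes these pooled values. In bulk tissue, fewer cells of a type and less RNA per cell cannot be told apart.

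Markers of brain cell types were read where they had an exclusion and an inclusion path, but intensities of different probe sets cannot be compared as levels, so these values do not check the brain label. The brightest path of 6 neuronal markers (*Gad1*, *Mtap2*, *Slc17a7*, *Snap25*, *Stmn2* and *Syn1*) lay between 2675 and 12087 in set A and between 2572 and 11162 in set B. None of the 4 liver markers had an event. Summed over the neuronal markers, the brightest paths gave 34762 in set A against 34849 in set B. The sum was 18735 and 20028 for 4 astrocyte markers, 15956 and 14722 for 3 oligodendrocyte markers, 692 and 694 for 2 microglial markers and 1117 and 1005 for 2 endothelial markers. Such sums are weighted toward the brightest probe sets and do not measure amounts of cells. The part of these cell types in the receptor values was not tested.

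The number in brackets in an event name was read as the length of the alternative segment in bases, since for retained introns the distance from the first to the last position exceeded it by 2 in 93.7% of 1068 events. By this number all 4 AMPA subunit genes had an event over a 115-base segment, the length that flip and flop exons share. *Gria1* and *Gria4* were listed with mutually exclusive segments of 115 bases each, and *Gria2* and *Gria3* with a 115-base cassette. They were 4 of the 24 events in the table with a 115-base cassette or mutually exclusive segment, and the *Gria1* and *Gria4* pairs were the only 2 mutually exclusive ones among these. The table does not say whether flip or flop was on the exclusion path, so the sign of these ratios cannot be read as a shift toward flip or toward flop.

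The cassette of *Grin1* was 63 bases long, which is 21 codons and the length of the N1 cassette. Of the second events per gene, those of *Gria1* and *Gria2* were complex, combining several choices, and those of *Gria3*, *Gria4* and *Grin1* were alternative transcript ends. In 4 of the 5 genes the second event overlapped the first. The 115-base events of *Gria1*, *Gria3* and *Gria4* lay wholly inside the second event, and in *Gria2* the pair shared 802 bases. Only the events of *Grin1* lay apart, so elsewhere the events of a gene are not independent views of it.

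The limit was an absolute log2 ratio of 0.5 for exclusion over inclusion in set B against set A, a 1.41-fold change. None of the 10 events moved past it. This is only the size part of the study's call for the arrays. The study also required a low false discovery rate, which was not applied here. Events past the limit are therefore not the study's significant events. Over the whole table, 7.32% of 12983 events with values passed this size limit. The receptor events ranged from -0.27 for the *Gria4* pair to 0.24 for the complex event of *Gria1*, with a median absolute log2 ratio of 0.10 against 0.18 for all events. Only those 2 of the 10 lay above the median of all events. By event type, the shares past the limit were 8.54% of cassettes, 1.69% of the 59 mutually exclusive events, 8.36% of complex events and 2.77% of alternative ends. With so few receptor events, a count of 0 does not stand apart from any of these shares or from the 7.32%. Among events with all 4 intensities at 300 or more, a limit chosen after seeing the data, 4.3% passed, and 9 of the receptor events were that bright.

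**Figure D1:**
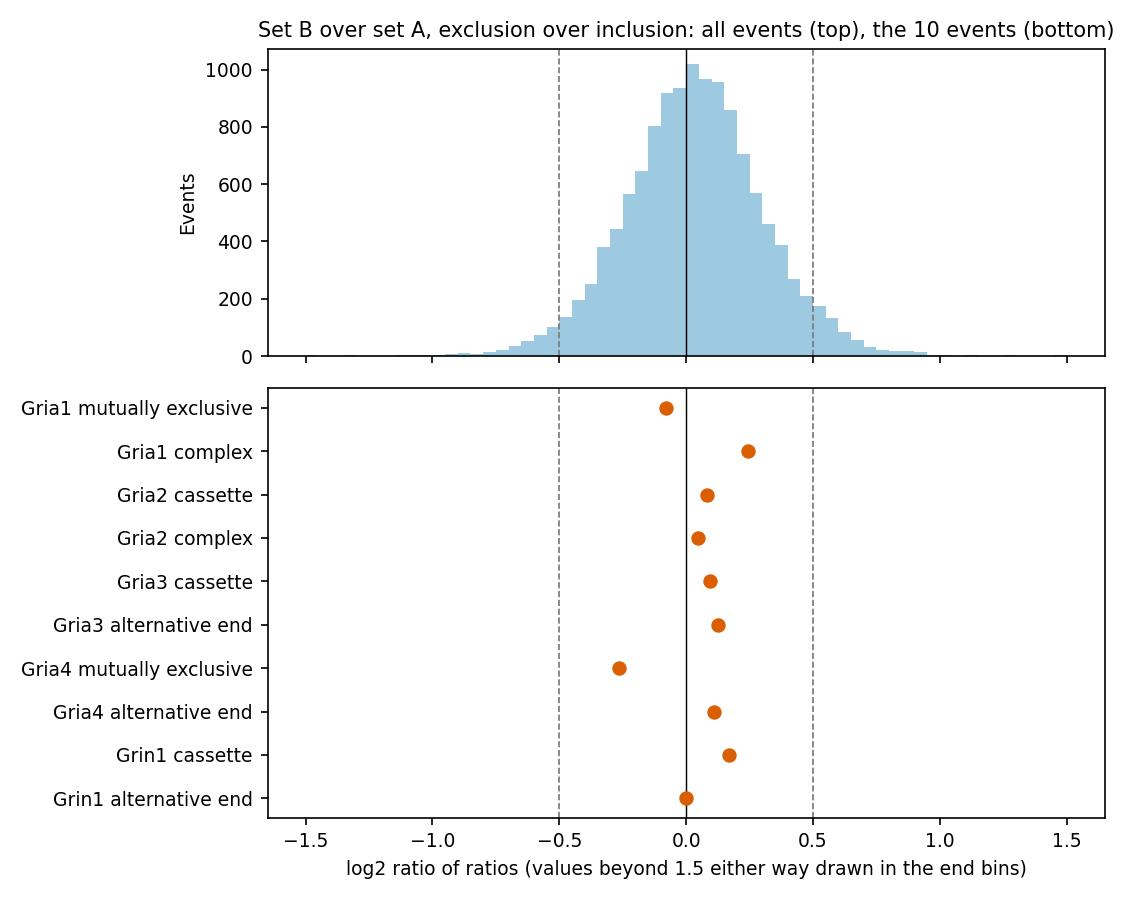
Log2 ratio of exclusion over inclusion in set B against set A. The top panel counts the 12595 events of types with an exclusion path in bins of the log2 ratio. The bottom panel places each of the 10 receptor events as 1 point. Dashed lines mark the limit of 0.5 either way. All 10 points lie between -0.27 and 0.24.

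The mutually exclusive pair of *Gria4*, whose subunit GluA4 forms fast AMPA receptors in some interneurons and in the cerebellum, had the largest absolute ratio of the 10 (chromosome 9, 4424454 to 4456004, minus strand). Exclusion read 1286 in set A against 1143 in set B, and inclusion read 1310 against 1400. Exclusion over inclusion thus came to 0.982 in set A against 0.816 in set B, a log2 ratio of -0.27. Exclusion was 11.1% lower and inclusion 6.87% higher in set B, and it was the only receptor event with inclusion higher in set B. Of all 12983 events 31.5% had a larger absolute value, and of the mutually exclusive events 23.7%.

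The alternative end of *Gria4* (4417896 to 4480177), which spans the same region and reaches toward the gene's 3' end, had a ratio of the opposite sign. Exclusion read 1246 in set A against 1224 in set B, and inclusion 479 against 436. This gave a log2 ratio of 0.11, which 67.3% of all events exceeded in size. Here both outcomes were lower in set B, inclusion by more than exclusion.

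*Gria1* encodes GluA1, the subunit best known for its insertion at synapses during plasticity. Its mutually exclusive pair (chromosome 11, 57102997 to 57131167, plus strand) had exclusion intensities of 2968 in set A against 2792 in set B, with inclusion intensities of 2357 and 2342. The log2 ratio was -0.08, a change of the ratio by -5.33%, and 76.3% of all events exceeded it in size. The *Gria1* and *Gria4* pairs thus had the same sign, and they were the only 2 of the 10 events below 0. Which exon is on the exclusion path is not given, so a shared sign need not mean a shift toward the same exon.

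The complex event of *Gria1* covered nearly all of the gene (56825309 to 57143552). Exclusion read 2926 in set A against 2979 in set B, whereas inclusion read 1563 against 1345. The inclusion side was 13.9% lower in set B while the exclusion side was 1.81% higher, and the log2 ratio was 0.24. This was the second largest of the 10 by size, and 35.8% of all events were larger.

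*Gria2* encodes GluA2, whose edited form makes AMPA receptors impermeable to calcium. Its 115-base cassette (chromosome 3, 80493273 to 80495241, minus strand) had exclusion intensities of 2282 in set A against 2326 in set B, with inclusion intensities of 1728 and 1665. The log2 ratio was 0.08, with 75.6% of all events larger. The complex event of *Gria2* (80494440 to 80496206) was the dimmest of the 10, with 99 and 93 for exclusion and 132 and 120 for inclusion. Its log2 ratio of 0.05 is uncertain, because rounding of the intensities to whole numbers alone allows 0.02 to 0.07.

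*Gria3*, the X-linked AMPA subunit gene, had a 115-base cassette (39007430 to 39022677, plus strand) with exclusion intensities of 915 in set A and 857 in set B. Its inclusion intensities were 2336 and 2049. Both outcomes were lower in set B, inclusion by 12.3% and exclusion by 6.34%, and the log2 ratio was 0.09. The alternative end of *Gria3* (38963467 to 39031777) had 4339 and 4395 on the exclusion path, the brightest of all the receptor intensities, and 351 and 326 on the inclusion path. Its log2 ratio was 0.13, so both *Gria3* events had the sign of the *Gria2* events, and each of these 4 was smaller in size than the median of all events.

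In *Grin1* the 63-base cassette (chromosome 2, 25165995 to 25168947, minus strand) had a larger ratio than any other cassette of the 5 genes. Exclusion read 3029 in set A against 2851 in set B. Inclusion read 1542 against 1292, 16.2% lower in set B, the largest difference of any of the receptor intensities. The log2 ratio was 0.17, just under the median size of all events, with 51.8% of events larger.

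The alternative end of *Grin1* (25146702 to 25151311), at the 3' end where the C-terminal cassettes lie, had no values in the paired part of the table, and its intensities come from the standard part, which compares the sets without pairing. Exclusion read 2559 in set A against 2340 in set B, and inclusion 1068 against 976. Both outcomes were lower in set B by nearly the same share, 8.56% and 8.61%. The log2 ratio was 0.00089, and 99.7% of all events were larger. Among the 10 events this one came closest to an equal change on both paths.

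**Figure D2:**
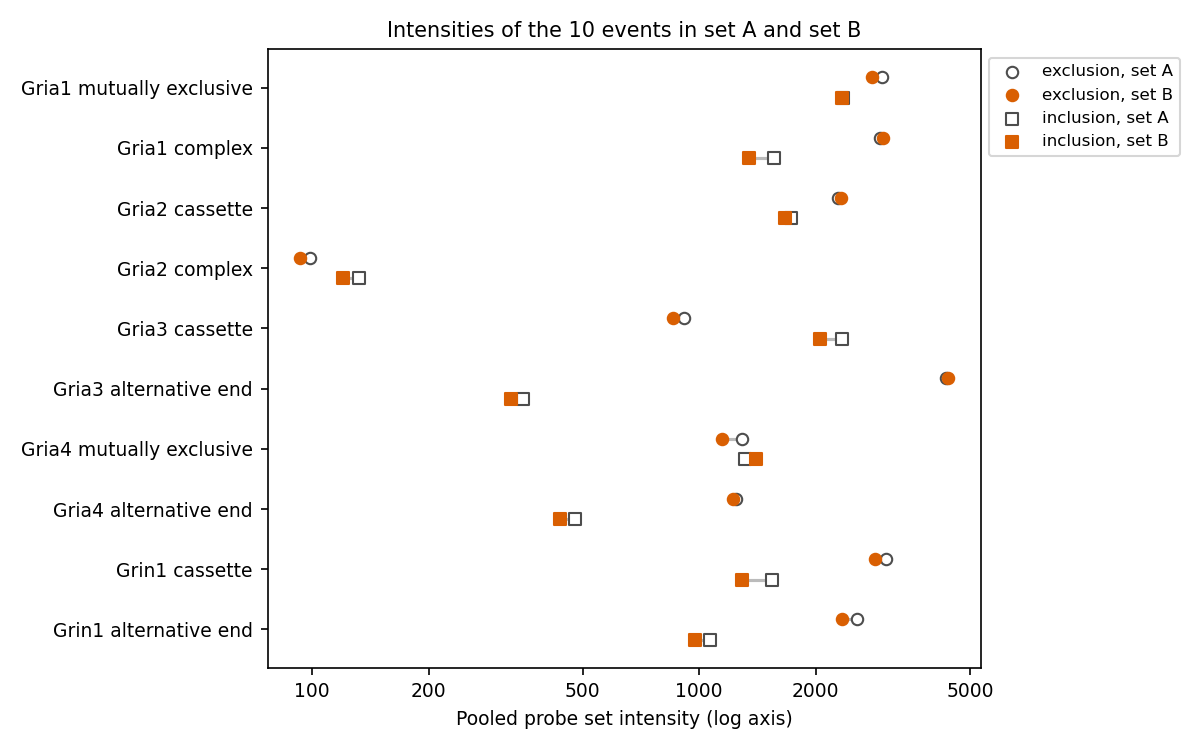
Pooled probe set intensity on a log axis for the exclusion path (circles) and inclusion path (squares) of each of the 10 events, in set A (open) and set B (filled). The inclusion symbols of set B lie to the left of those of set A in all events but the mutually exclusive pair of *Gria4*, where inclusion read 1310 in set A against 1400 in set B.

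Most receptor intensities were somewhat lower in set B. Of the 20 intensities, 16 were lower in set B and 4 higher, with a median log2 difference of -0.09, while over all events with an exclusion path 49.8% of intensities were lower and the median was 0.00. Inclusion was lower in set B in 9 of the 10 events, with the *Gria4* pair the exception, and exclusion in 7. Over all events with an exclusion path, inclusion was lower in 53.0% and exclusion in 46.5%. In events with all 4 intensities at 300 or more, these shares were 61.9% and 52.2%, so inclusion was more often lower across the table too. All 4 *Grin1* intensities were lower in set B, with a median log2 difference of -0.13. For *Gria1*, *Gria2*, *Gria3* and *Gria4* each, 3 of 4 were lower, with medians from -0.05 in *Gria1* to -0.10 in *Gria3*. Other gene lists varied. For neurexins and neuroligins, 73.8% of intensities were lower in set B, with a median of -0.10. The values were 74.4% and -0.08 for editing enzymes and brain splicing regulators, and 58.3% and -0.10 for CaMKII genes. They were 64.3% and -0.07 for other ionotropic subunits, 58.8% and -0.08 for anchoring and trafficking partners, and 62.5% and -0.03 for metabotropic receptors. Neuronal markers had 59.1% and -0.009. Over a few events each, oligodendrocyte markers had 75% and -0.05, and endothelial markers 75% and -0.11. Astrocyte markers had 50% and -0.02, and microglial markers 50% and 0.02. AMPA receptor auxiliary subunit genes, with only 5 events, had 40% lower and a median of 0.10. Their median was 0.16 for exclusion intensities but -0.07 for inclusion intensities.

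Brightness moved with this difference. Among all events the share of intensities lower in set B was 39.5% in the dimmest of 4 equal bins of brightness and 59.7% in the brightest, where the median log2 difference was -0.04. In events with all 4 intensities at 300 or more, 57.1% were lower in set B with a median of -0.03, against 77.8% and -0.09 for the 9 receptor events that bright. The 9 ranged from 326 upward, and the part of brightness in the difference was not tested.

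Since inclusion was lower by more than exclusion, or exclusion was higher, in most events, 8 of the 10 log2 ratios were above 0, including the *Grin1* alternative end, whose sign is not determined because rounding allows -0.0011 to 0.0029. Over the 12595 events of types with an exclusion path, 55.3% were above 0. Of the other complex and alternative end events, all 4 were above 0 beyond rounding. The 4 events over 115-base segments were split, with *Gria2* and *Gria3* above 0 and *Gria1* and *Gria4* below. Because the exon on each path is not given, this split cannot be read as opposite shifts.

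**Figure D3:**
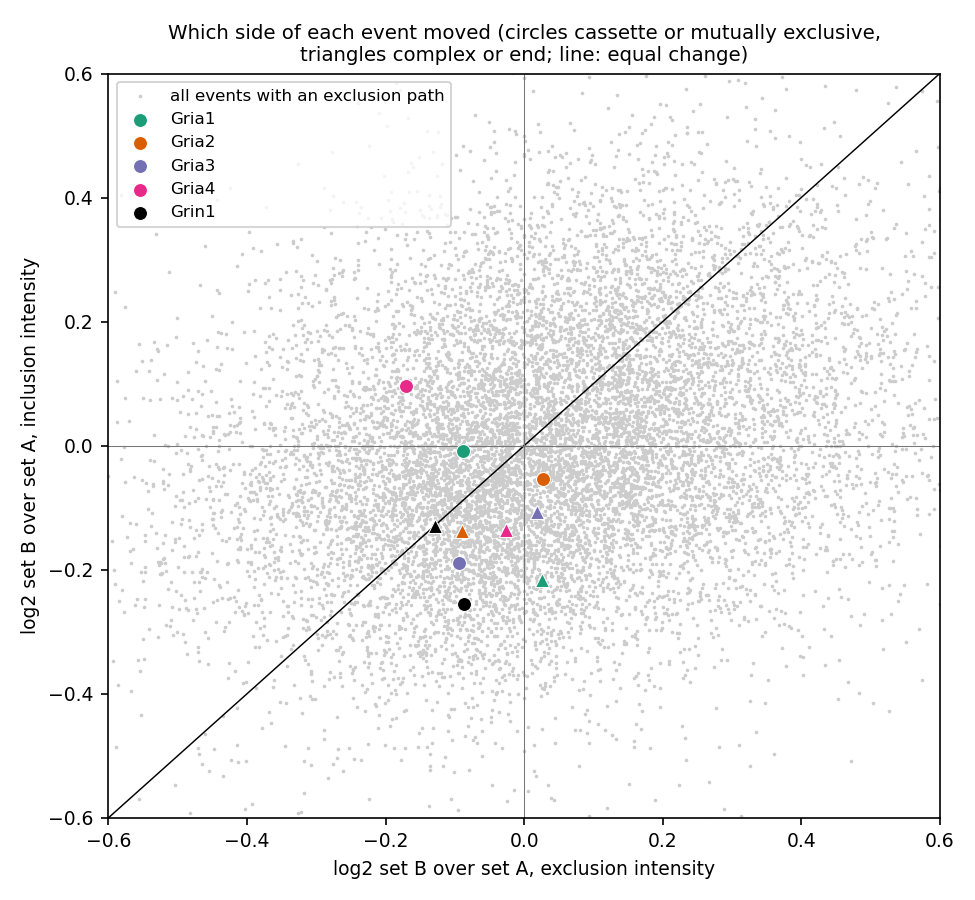
Log2 set B over set A of the inclusion intensity (vertical) against that of the exclusion intensity (horizontal), with 1 grey point per event with an exclusion path and coloured points for the receptor events; 345 events beyond 0.6 on either axis are not drawn. Points below the diagonal have a ratio above 0, and 8 of the 10 receptor events lie there, the *Grin1* alternative end almost on the line.

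Other genes of glutamate signalling were set beside the 5 receptor genes by their events past the limit. Of 13 other ionotropic subunit genes, which encode further NMDA, kainate and delta subunits, 6 had events. Past the limit was 1 of their 7 events (14.3%, against 7.32% of all events), below 0. It was an alternative 5' splice site of the kainate receptor gene *Grik5*, with exclusion intensities of 700 in set A and 613 in set B, inclusion intensities of 1002 and 1330 and a log2 ratio of -0.60. The median absolute log2 ratio of these 7 was 0.22, above the 0.10 of the AMPA subunit and *Grin1* events and the 0.18 of all events. Among metabotropic receptor genes the median absolute log2 ratio was 0.25 over 8 events.

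Genes whose proteins assemble with or anchor AMPA receptors had 1 event past the limit in each list. Of the auxiliary and associated genes 5 of 16 had an event each, and 1 of these 5 events passed, a larger share than the 7.32% of the table but of very few events, an alternative start of *Olfm3* at 0.75. Of 34 events of anchoring and trafficking genes 1 did (2.94%), an alternative start of *Shank3*, a scaffold of the postsynaptic density, at 0.60. Their median absolute log2 ratios were 0.17 and 0.16, close to that of all events.

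Editing enzymes and brain splicing regulators, which include known regulators of neuronal exons, had 4 of 45 events past the limit. These were an alternative start of *Mbnl1* at -0.68, an alternative 5' splice site of *Nova2* at -0.56, an alternative end of *Ptbp2* at 0.53 and a complex event of *Elavl4* without an exclusion path, which has a size of 0.58 but no direction on this scale. The share of 8.89% was near the 7.32% of the table.

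The other synaptic gene families compared had medians near that of the receptor genes. Neurexins and neuroligins had a median absolute log2 ratio of 0.08 over 21 events. CaMKII genes, which encode the kinase that phosphorylates GluA1, had a median of 0.11 over 18 events. Of these, 2 (11.1%, against 7.32% of all events) were past the limit, a complex event of *Camk2b* at -0.60 and a retained intron of *Camk2d* at 0.52. These events were not tested against those of the receptors.

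**Figure D4:**
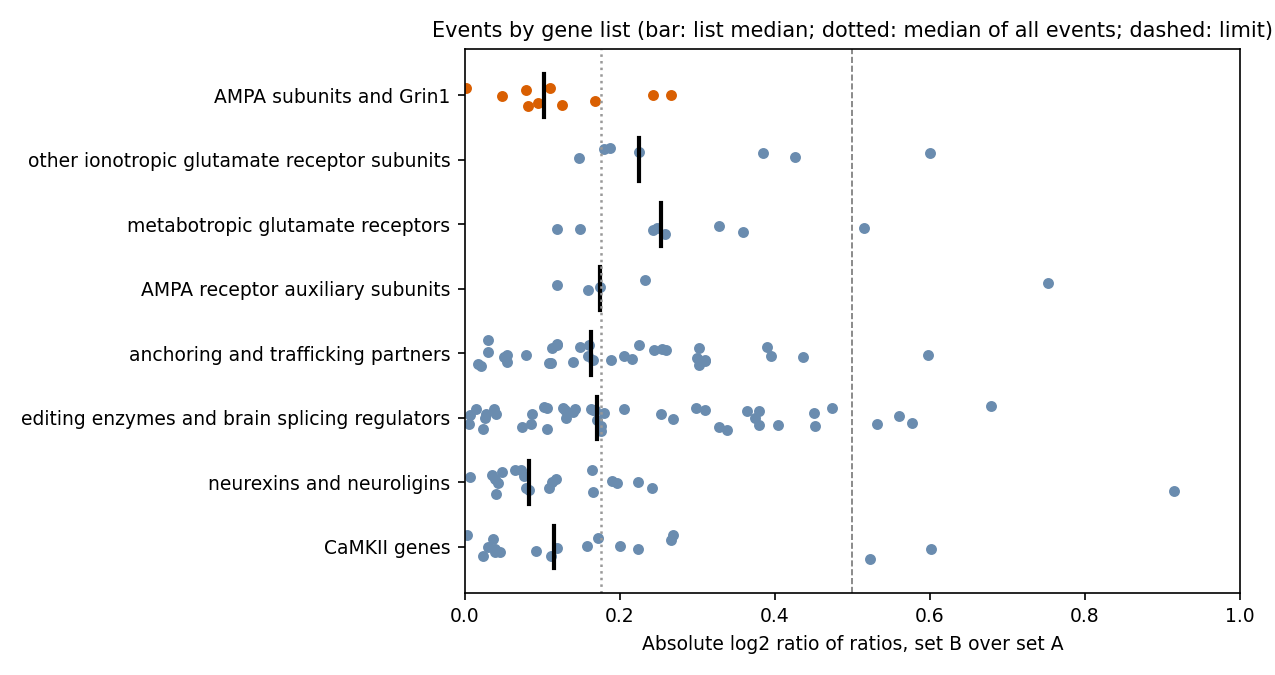
Absolute log2 ratio of exclusion over inclusion in set B against set A for each event of the 8 gene lists, 1 point per event, with a black bar at each list's median, a dotted line at the median of all events (0.18) and a dashed line at the limit of 0.5. The AMPA subunit and *Grin1* points end at 0.27, and each of the other lists has at least 1 point past the limit.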

How the data were processed

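The authors' deposited table lists linear intensities of exclusion and inclusion probe sets as whole numbers, pooled over the arrays of set A and set B. Per the labels, Affymetrix Power Tools was used. How the arrays were normalized and corrected for background, with which version and on which assembly, is not given in the sources used here; positions are printed as in the table. They do not follow GRCm38, since 4 of the 5 genes had an event not wholly inside the RefSeq gene bounds of that assembly. The authors' deposited log2 separation scores, used only for their sign to orient the sets, and their q-values hold the study's own comparisons and are not reported. The paired and standard parts listed the same intensities in all but 0 of 26304 rows with both, and inclusion rows mirror exclusion rows in 12571 of 12582 events.

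From the intensities, the log2 ratio of exclusion over inclusion in set B against set A was computed per path. An event took its path with the largest absolute value and the sign of exclusion over inclusion, and was past the limit at an absolute value over 0.5. Events were described for all paths of the 5 genes. Of each other gene list, events past the limit were named, or the 3 largest where a list had more than 4 or none. Some of these events are not reported here. Older symbols were matched through RefSeq synonyms. The members and lists were chosen with earlier results of these data known. The number of arrays limits precision, and no spread could be computed. The steps were tested on simulated data with exact changes and no noise. That checked the calculation and not the precision of the pooled values. Alternatives were an offset of 50, a filter at 100, centring, the standard part, the mean over paths and limits of 0.3 and log2 of 1.4. Python 3.11.15, numpy 2.4.6, pandas 2.3.3 and matplotlib 3.10.9 were used.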

Additional observations from a re-analysis of the deposited data

How the results depend on the processing

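The 9 receptor events with paired intensities had a median absolute log2 ratio of 0.11 and 0 past the limit, and the count was 0 under every alternative tried. The median was 0.10 with an offset of 50, 0.12 without paths under an intensity of 100, 0.091 after the median over all paths was subtracted, 0.10 over the 10 events of the standard part and 0.12 over the 8 events with all 4 intensities at 300 or more. Over all events, 950 passed the limit, against 412 with the offset, 3371 at a limit of 0.3 and 131 among events with all 4 intensities at 300 or more in the paired part. Of the 9 events with paired values none changed sign, and the *Grin1* alternative end had no alternative run. For the 9, the largest shift was 0.03, after centring. No paired analysis was possible because the columns hold values pooled over the 3 arrays of a set; for the same reason no array could be left out. Low intensities limit the complex event of *Gria2* most.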
